A study of Mus musculus with 41 samples.

Results

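Hippocampus was compared with cortex in SAMR1 mice, the senescence-resistant control strain of the study, at 6 months of age. The 7 libraries carrying these labels were taken, 4 from hippocampus and 3 from cortex, out of 41 libraries in the series. By their labels they came from 4 male mice without experimental drug treatment or transgene, numbered 1, 2, 4 and 17. Numbers 2, 4 and 17 stand on libraries of both regions. In the study, mice went through behavioral tests and MRI under isoflurane, and were anesthetized with ketamine and medetomidine for perfusion. The tissue was then dissected from a single hemisphere, so that each library holds all cell types of the piece that was cut. Total RNA was sequenced after removal of ribosomal RNA, and values are counts per gene, given here as counts-per-million values of the library total (CPM). In the study the region was a covariate of the comparison between strains, and the contrast of regions below is its counterpart within the control strain.

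The hippocampus is built from the granule cells of the dentate gyrus and the pyramidal cells of the CA fields, while the cortex is built from layers of projection neurons, and each carries its own set of transcription factors. The lateral ventricle, with its ependyma and choroid plexus, lies against the hippocampus, and the striatum lies beneath the cortex, so that both can come along with a dissected piece. Striatal projection neurons are known for enkephalin, substance P and dopamine receptors, and the choroid plexus for transthyretin, the thyroxine carrier that it secretes into the cerebrospinal fluid.

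Depth differed widely. Total counts ranged from 434515 in hippocampus of mouse 4 to 9914452 in hippocampus of mouse 2, with 13678 to 24140 genes detected and 2.55% to 4.59% of counts on mitochondrial genes. Between 64.3% and 93.8% of the counts above 0 in a library were even numbers, so the number of independent molecules behind a count is not known and no counting interval is given. The p-values measure the spread between these libraries.

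The labelled regions were first checked against genes that differed between regions in the 8 SAMR1 libraries of 2.5 months. There, 177 of 15390 genes were higher in hippocampus (1.15%) and 167 were lower (1.09%), with an adjusted p not above 0.1 and a fold of 2 or more, the thresholds of the study. The mean log2 CPM of the first set minus that of the second was -1.39 in cortex of mouse 2, -1.29 in cortex of mouse 17, 2.05 in hippocampus of mouse 1, 1.89 in that of mouse 2 and 2.08 in that of mouse 4. The remaining libraries lay on the side opposite to their labels, with 1.61 in the library labelled cortex of mouse 4 and -1.65 in the library labelled hippocampus of mouse 17. Hand-written lists of 57 hippocampal and 65 cortical genes gave -0.0048 and -0.78 for them, against -1.27 and -0.71 in the other cortex libraries and 0.49, 0.052 and 0.75 in the other hippocampus libraries. Results are therefore given for all 7 libraries as labelled and for the 5 without this pair. The pair was set aside for its region genes, so the calls of region genes among 5 libraries are not independent evidence of a region difference. Cortex of mouse 2 stood apart in another way: on 13 genes that separate the strains at 2.5 months, its SAMP8 share was 0.966, against 0 to 0.131 in the other 6 libraries.

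**Figure D1:**
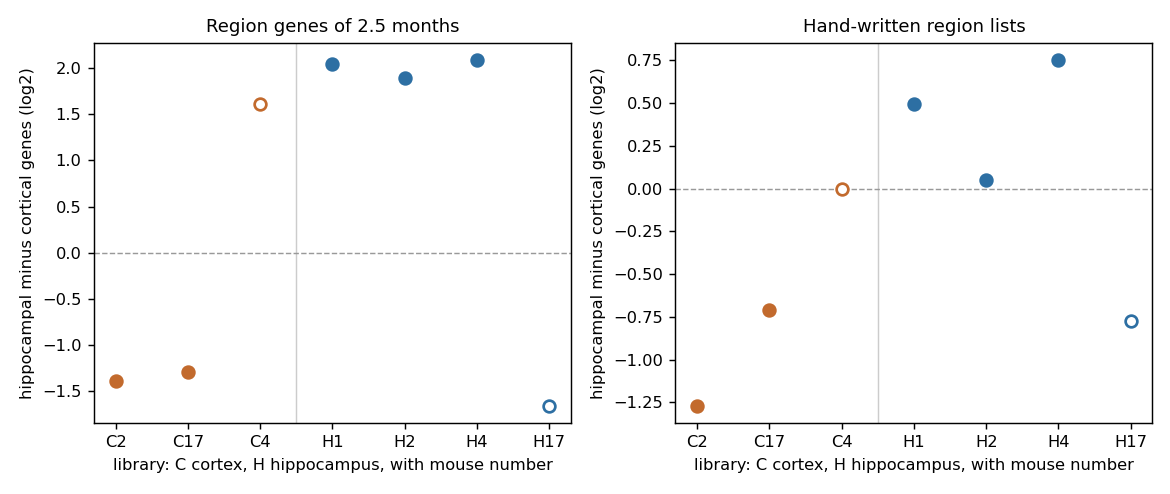
Region index of the 7 libraries: the mean log2 CPM of hippocampal genes minus that of cortical genes, from the genes that differed between regions at 2.5 months (left) and from hand-written lists (right). Orange points are labelled cortex (C) and blue points hippocampus (H), each with its mouse number, and open points mark the pair set aside. On the left, the open cortex point at 1.61 lies near the other hippocampus libraries, just below the 1.89 of mouse 2, and the open hippocampus point at -1.65 lies below both other cortex libraries.

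With all 7 libraries under their labels, no gene was called in either direction. Of 12454 genes tested, 0 (0%) were higher and 0 (0%) lower in hippocampus by edgeR's quasi-likelihood test with Benjamini-Hochberg adjustment, 450 had an unadjusted p under 0.05, and the lowest adjusted p was 0.999. DESeq2 called 4 genes, all lower. Within mice, the 177 hippocampal genes of 2.5 months differed by a median log2 of 1.93 between hippocampus and cortex in mouse 2, with 173 positive, but by 0.12 in mouse 4 and 0.22 in mouse 17. The 167 cortical genes differed by -1.12, -0.17 and 0.50 in the same mice. The libraries labelled mouse 2 thus differed clearly in the direction of their region labels. Those of mouse 4 differed little, and in mouse 17 the cortical genes ran the other way. By strain genes, cortex and hippocampus of mouse 2 had SAMP8 shares of 0.966 and 0, so their difference may not lie within a single animal. Whether both came from the same mouse was not tested.

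Without the pair, 153 genes were called: of 13772 tested, 61 were higher in hippocampus (0.443%) and 92 were lower (0.668%), with log2 differences of 1.08 to 8.0 and -1.02 to -5.41. The leading genes were of distinct kinds. Those higher included genes of dentate granule cells, of CA1, of the choroid plexus and of motile cilia, and those lower included some genes of cortical projection neurons and of striatal projection neurons. The count rested on single libraries. It was 11 without hippocampus of mouse 2, the deepest library, and 69 without cortex of mouse 17, and it lay between 119 and 179 without any other one. Only 5 of the 153 genes were called whichever of the 5 libraries was left out, namely Dsp, Cabp7 and Gm2115, which were higher, and Penk and Rgs4, which were lower. Others of the 153 lost their call whichever library was left out, among them Zbtb20, Rorb, Nr4a3, Kcnt1, Tubb2b and Tspan2. Cabp7, Gm2115 and Rgs4, and below Scn4b, Tanc1, Shisa6 and Homer3, were chosen after their values were seen.

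Promoters are shown for the 2 called genes of lowest p in each direction that have an entry in the RefSeq table, Dsp and Cabp7 for hippocampus and Meis2 and Scn4b for cortex, so that their base composition can be read beside their levels. Each runs from 250 bases before to 50 bases after an annotated start on GRCm38.p6, 5′ to 3′ on the gene's strand. Capitals mark E-boxes (CANNTG) and TATA boxes (TATAAA), searched on both strands. They lie at chr13:38151044-38151343 (plus strand), chr11:4747130-4747429 (minus), chr2:116064570-116064869 (minus) and chr9:45138374-45138673 (plus).
Dsp: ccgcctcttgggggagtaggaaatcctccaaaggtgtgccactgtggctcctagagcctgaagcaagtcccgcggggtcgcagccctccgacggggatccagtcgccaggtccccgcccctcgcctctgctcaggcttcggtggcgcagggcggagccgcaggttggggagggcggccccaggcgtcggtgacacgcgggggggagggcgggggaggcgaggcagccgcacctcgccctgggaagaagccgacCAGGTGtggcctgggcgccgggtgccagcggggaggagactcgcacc
Cabp7: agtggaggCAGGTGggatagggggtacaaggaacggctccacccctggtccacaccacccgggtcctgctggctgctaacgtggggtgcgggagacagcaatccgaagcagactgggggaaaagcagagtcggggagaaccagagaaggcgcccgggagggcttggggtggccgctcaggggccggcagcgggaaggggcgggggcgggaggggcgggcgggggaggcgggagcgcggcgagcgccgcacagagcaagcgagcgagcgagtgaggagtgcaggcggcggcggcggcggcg
Meis2: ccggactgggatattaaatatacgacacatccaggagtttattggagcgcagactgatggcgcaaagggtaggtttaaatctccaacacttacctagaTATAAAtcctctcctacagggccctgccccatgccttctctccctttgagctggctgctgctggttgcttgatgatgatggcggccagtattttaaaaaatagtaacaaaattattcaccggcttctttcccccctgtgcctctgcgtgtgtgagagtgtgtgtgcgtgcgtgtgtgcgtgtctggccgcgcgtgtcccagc
Scn4b: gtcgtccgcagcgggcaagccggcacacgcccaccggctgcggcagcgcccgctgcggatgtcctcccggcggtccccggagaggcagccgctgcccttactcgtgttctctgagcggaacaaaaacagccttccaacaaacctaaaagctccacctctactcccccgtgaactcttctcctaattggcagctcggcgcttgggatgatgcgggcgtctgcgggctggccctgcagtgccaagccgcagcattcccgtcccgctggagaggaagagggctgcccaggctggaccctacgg
Dsp and Cabp7 each held 1 E-box and 4 matches to the GC box GGGCGG. Meis2 and Scn4b held neither, and Meis2 held 1 TATA box. Of 32851 promoters of this length, 72.3% hold an E-box, 35.7% a GC box and 13.6% a TATA box, so both motifs of the first pair are frequent. The CRE half-site TGACG, found in 20.8% of promoters, was in none of the 4.

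Among dentate gyrus genes, Dsp and Prox1 were higher in hippocampus. Dsp, which encodes the desmosomal plaque protein desmoplakin and marks granule cells (chromosome 13, 38151294 to 38198577, GRCm38), had 1.32 CPM in cortex of mouse 2 and 1.04 in cortex of mouse 17, against 68.9, 73.2 and 147 in hippocampus of mice 1, 2 and 4. The libraries set aside had 90.2 CPM (labelled cortex) and 0 (labelled hippocampus). The groups of the 5 libraries lay far apart, and the log2 difference was 6.19 (SE 0.53, adjusted p = 0.00062), the lowest p of the fit. At 2.5 months it was 2.93 (SE 0.37).

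Prox1, a transcription factor that maintains granule cell identity (chromosome 1, 190118035 to 190170714), had 23.1 and 23.6 CPM in cortex and 102, 60.1 and 152 in hippocampus. The groups did not overlap, and the log2 difference was 1.99 (SE 0.38, adjusted p = 0.055). The share of all genes without overlap was not counted, so a lack of overlap, here and below, only describes the values. Calb1, the calcium buffer calbindin, stands in the lists of both the dentate gyrus and the upper cortical layers. Its log2 difference was -1.55 (SE 0.26, adjusted p = 0.038), with 171 and 150 CPM in cortex against 49.7, 66.3 and 59.8. C1ql2, a synaptic organiser of mossy fibers, had 0 and 4.85 CPM in cortex and 10.2, 11 and 32.2 in hippocampus, and was not called (log2 difference 2.47, SE 1.02, adjusted p = 0.37). Over the 18 dentate gyrus genes, 2 were called higher, 1 lower, and the median was 0.28, against 0.0036 over all genes tested.

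Of 13 CA1 genes tested, Fibcd1 and Gpr161 were higher and 2 were lower, Meis2 among them, with a median of 0.73. Fibcd1, a receptor for acetylated sugars (chromosome 2, 31813290 to 31846005), had 5.29 and 6.93 CPM in cortex and 35.7, 37.5 and 73.6 in hippocampus, a log2 difference of 2.80 (SE 0.46, adjusted p = 0.038). Gpr161, a ciliary receptor that restrains hedgehog signalling, had 12 ± 2.08 CPM (SD, n = 2) in cortex and 60.9 ± 15.7 (n = 3) in hippocampus, a log2 difference of 2.18 (SE 0.36). At 2.5 months the log2 differences of these genes were 3.25 and 2.38. Meis2 is not confined to CA1 and is known as a homeobox gene of striatal and other neurons.

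Of 14 genes of the hippocampus at large, Zbtb20 and Nr3c2 were higher and 12 lay above 0, with a median of 0.48. Zbtb20, a repressor needed for the hippocampal fields to form (chromosome 16, 42875881 to 43642602), had 287 and 286 CPM in cortex and 789, 639 and 663 in hippocampus. Its log2 difference was 1.18 (SE 0.25, adjusted p = 0.081), and the labelled hippocampus of mouse 17 had 301. Zbtb20 lost its call whichever of the 5 libraries was left out. Nr3c2, the mineralocorticoid receptor, had 51.7 ± 5.79 CPM in cortex and 182 ± 62.6 in hippocampus, a log2 difference of 1.67 (SE 0.32). The 14 CA3 and CA2 genes had a median of 0.29, and only Lamp5 was called among them, lower.

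Gabra5, the alpha 5 subunit of extrasynaptic GABA-A receptors (chromosome 7, 57407672 to 57510059), was the only called member of 14 GABA receptor genes. It had 44.9 and 30.8 CPM in cortex and 122, 112 and 129 in hippocampus, which did not overlap, a log2 difference of 1.57 (SE 0.29, adjusted p = 0.052). The other members ran the other way in the main: 12 of 14 lay below 0 and the median was -0.41. Cabp7, a membrane-bound calcium sensor, had 11.9 and 14.5 CPM in cortex and 188, 101 and 193 in hippocampus (log2 difference 3.46, SE 0.37, adjusted p = 0.0039). Other synaptic genes that were higher were Shisa6, which holds AMPA receptors at the synapse (2.15), the scaffolds Homer3 (2.90) and Tanc1 (1.90), all log2 differences.

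**Figure D2:**
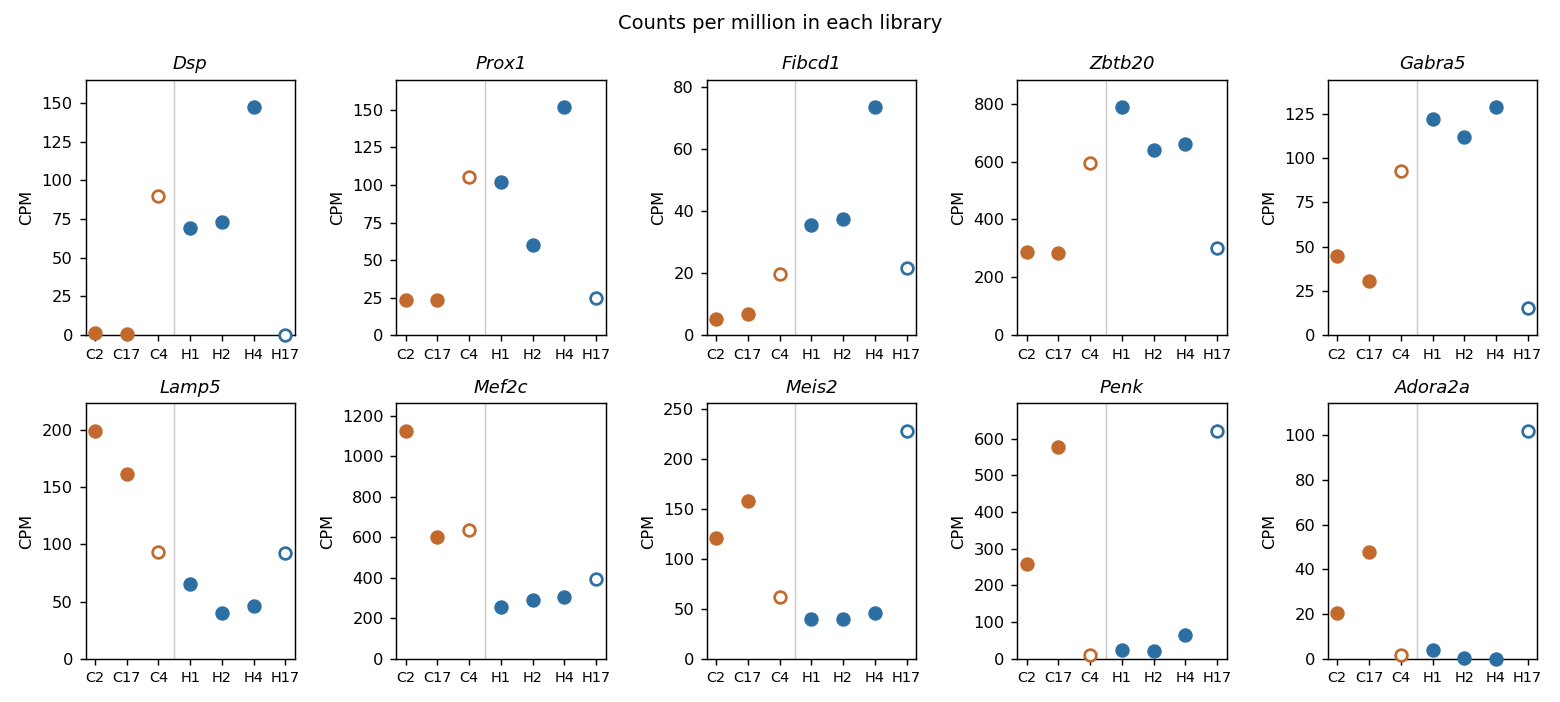
CPM of 10 called genes in each of the 7 libraries. Orange points are labelled cortex (C) and blue points hippocampus (H), with the mouse number, and open points are the libraries left out of the 5-library fit. The upper row holds genes higher in hippocampus and the lower row genes lower in it. Dsp is at 1.32 and 1.04 in the filled cortex points and at 0 in the open hippocampus point.

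Some genes of cortical projection neurons were lower in hippocampus. Of 18 upper layer genes tested, 3 were called lower and none higher, and the median was -0.97. Of 23 genes of the cortex at large, 4 were lower, Arpp21, Lamp5 and Mef2c among them, with a median of -0.93. Neither list had a call without hippocampus of mouse 2. Lamp5, a lysosome-related membrane protein of upper layer neurons and some interneurons (chromosome 2, 136052239 to 136069917), had 199 and 161 CPM in cortex against 65.7, 39.6 and 46.0 in hippocampus. The log2 difference was -1.95 (SE 0.29, adjusted p = 0.027), while at 2.5 months it was -0.87 (SE 0.23) and not called. The libraries set aside hardly differed in Lamp5, with 93.0 CPM (labelled cortex) and 92.7 (labelled hippocampus).

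Mef2c, an activity-regulated transcription factor (chromosome 13, 83504034 to 83667080), had 1126 and 604 CPM in cortex against 258, 289 and 306 in hippocampus (log2 difference -1.72, SE 0.29, adjusted p = 0.038). Cortex of mouse 2 was the highest of the 7 libraries. The library labelled cortex of mouse 4 had 634 CPM, above cortex of mouse 17, and that labelled hippocampus of mouse 17 had 395. Rorb, the layer 4 nuclear receptor, was lower as well (log2 difference -1.22, SE 0.28, adjusted p = 0.096). Tbr1, a transcription factor of deep layer neurons, had 145 and 60.3 CPM in cortex and 38.3, 45.7 and 78.2 in hippocampus, which overlapped, and was not called (adjusted p = 0.29).

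The 27 deep layer genes did not follow this pattern as a list, with 15 above 0, 12 below and a median of 0.20. Foxp2, a transcription factor of layer 6 and of striatal neurons, was lower, with 41 and 40.7 CPM in cortex against 7.65, 4.24 and 0 (log2 difference -3.20, SE 0.54, adjusted p = 0.038). Tshz2 and Fam84b were higher, by 1.66 (SE 0.37) and 2.61 (SE 0.54) on the log2 scale. Potassium channel genes gave 3 lower of 45, Kcnj4, Kcnt1 and Kcnv1, with log2 differences of -1.28, -1.18 and -1.50.

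The list with the most genes lower in hippocampus was that of the striatum. Of 16 striatal genes tested, 10 were lower in hippocampus, none was higher, all 16 lay below 0, and the median was -2.46. Penk, which encodes proenkephalin (chromosome 4, 4133531 to 4138819), had 259 and 578 CPM in cortex and 24.9, 20.7 and 64.4 in hippocampus, a log2 difference of -3.86 (SE 0.46, adjusted p = 0.0085). The groups did not overlap. The libraries set aside gave 11.3 CPM of Penk under the cortex label and 621 under the hippocampus label.

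The other called members carry the signalling of both kinds of striatal projection neuron. The adenosine receptor gene Adora2a and the dopamine receptor gene Drd2, of the indirect pathway, had log2 differences of -4.96 (SE 0.85) and -3.39 (SE 0.61). Drd1 and Tac1, the dopamine receptor and the substance P precursor of the direct pathway, had -2.65 (SE 0.42) and -2.73 (SE 0.63). The phosphodiesterase gene Pde10a (-1.83), the G-protein regulator gene Rgs9 (-2.85), the phosphatase inhibitor gene Ppp1r1b (-1.58) and Syndig1l (-3.40) were also lower. Scn4b, a sodium channel subunit, had 73.4 and 178 CPM in cortex against 25.5, 13.3 and 23.0.

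Summed over the 18 genes of the striatal list, cortex had 1443 CPM in mouse 2 and 2780 in mouse 17, and hippocampus had 586, 556 and 762 in mice 1, 2 and 4. The library labelled hippocampus of mouse 17 had the highest sum, 4043, and the library labelled cortex of mouse 4 had 595. At 2.5 months the list gave 16 lower of 18, with a median of -2.66, so the cortex libraries of both ages carried these genes. How much striatum the cortex pieces held was not tested, and in bulk tissue fewer cells of a type and less RNA per cell cannot be told apart. The number of called striatal genes fell to 2 without cortex of mouse 17 and to 1 without hippocampus of mouse 2.

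Choroid plexus genes had the largest median difference of the 28 lists. Of 16 tested, 9 were higher in hippocampus (Calml4, F5, Folr1, Kcnj13, Kl, Otx2, Slc4a5, Tmem72 and Ttr), all 16 lay above 0, and the median was 5.72. Ttr, transthyretin, had 21.1 and 25.3 CPM in cortex and 185, 16899 and 1033 in hippocampus of mice 1, 2 and 4, a log2 difference of 7.91 (SE 1.69, adjusted p = 0.080). Kl, the klotho co-receptor for FGF23, had 1.32 and 2.42 CPM against 14, 583 and 41.4. F5, coagulation factor V, had 1.32 and 2.08 CPM against 23.0, 363 and 59.8. In each of these genes the lowest hippocampus library exceeded both cortex libraries, but hippocampus of mouse 2 held most of the signal.

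The summed level of the 21 choroid plexus genes was 283 and 315 CPM in cortex, 779 and 2055 in hippocampus of mice 1 and 4, and 27892 in hippocampus of mouse 2. It was 12586 in the library labelled cortex of mouse 4 and 409 in that labelled hippocampus of mouse 17. In cortex of mouse 2, 11 of the 21 genes were at 0, and in hippocampus of mouse 2 none was. Calls of choroid plexus genes fell to 1 of 12 tested, with a median of 2.82, without hippocampus of mouse 2, and to 0 of 21 without cortex of mouse 17. The part that attached choroid plexus played in other genes of hippocampus of mouse 2 was not tested.

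Genes of motile cilia, which line the ventricle on ependymal cells, were also higher. Of 17 tested, 4 were called higher, all 17 lay above 0, and the median was 2.05. Dnah9, an axonemal dynein heavy chain, had 4.30 and 12.8 CPM in cortex and 65.0, 79.5 and 36.8 in hippocampus (log2 difference 2.72, SE 0.48, adjusted p = 0.047). The central apparatus gene Hydin had 6.61 and 6.23 CPM against 24.2, 31.4 and 46.0 (log2 difference 2.23, SE 0.46). Their summed level was not led by hippocampus of mouse 2 in the way of the choroid plexus. It was 419, 575 and 272 CPM in hippocampus of mice 1, 2 and 4, and 100 and 151 in cortex. Their mean log2 CPM was 3.58, 4.22 and 1.68 in the same hippocampus libraries, against 1.69 and 2.07 in cortex of mice 2 and 17. In hippocampus of mouse 4, 8 of the 20 genes were at 0. None of the list was called without hippocampus of mouse 2. Dnah11, another dynein chain, had a log2 difference of 3.73 (SE 0.49, adjusted p = 0.018), against 0.42 (SE 0.78) at 2.5 months.

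Of the myelin genes, all 27 tested were above 0, with a median of 1.1, but only Tspan2, a tetraspanin of maturing oligodendrocytes, was called (log2 difference 1.5, SE 0.32, adjusted p = 0.080). Mobp, a structural protein of compact myelin, had 314 and 543 CPM in cortex and 2079, 950 and 1109 in hippocampus, with no overlap and an adjusted p of 0.12 (log2 difference 1.59, SE 0.39). The summed level was 2322 and 4758 CPM in cortex and 14609, 6848 and 7615 in hippocampus, and the highest value was that of mouse 1. The median of the list was 0.69 without cortex of mouse 2 and 1.84 without cortex of mouse 17, and 24 of 27 genes lay above 0 without hippocampus of mouse 1. Tspan2 lost its call whichever of the 5 libraries was left out.

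**Figure D3:**
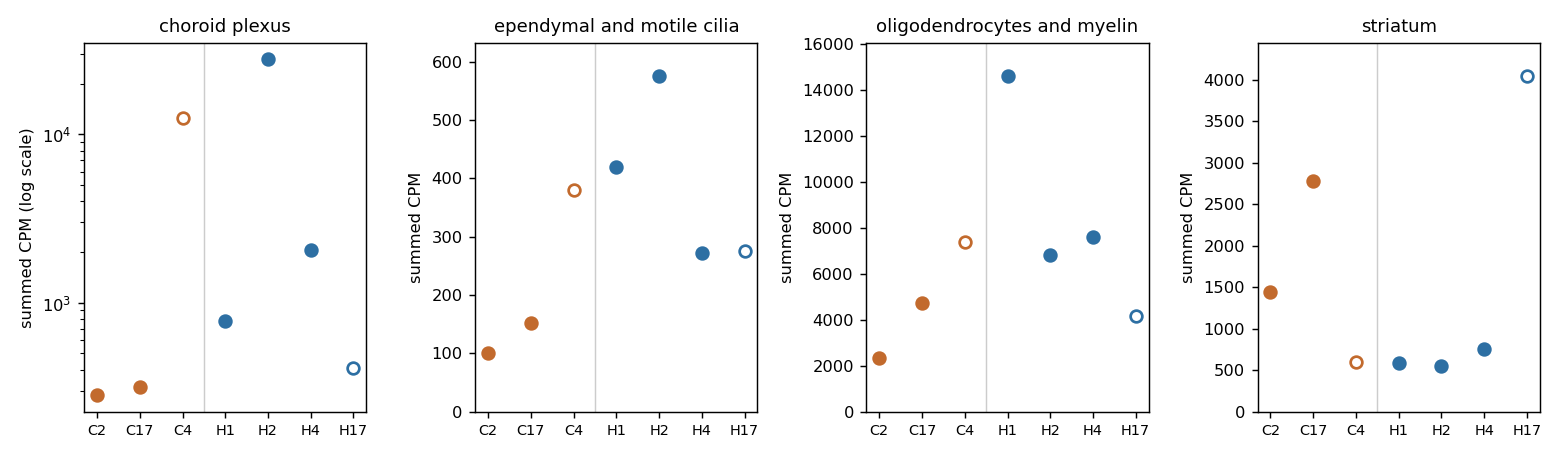
Summed CPM of 4 gene lists in each of the 7 libraries, with a log scale for the choroid plexus and linear scales from 0 for the others. Orange points are labelled cortex (C), blue points hippocampus (H), with mouse numbers, and open points are the pair set aside. Hippocampus of mouse 2 reaches 27892 for the choroid plexus, and the labelled hippocampus of mouse 17 reaches 4043 for the striatum.

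Other cell types gave few or no calls. None of the genes of astrocytes (23 tested, median 0.28), microglia (22, 0.19), GABA interneurons (20, -0.22), endothelium and pericytes (18, -0.062), meninges and fibroblasts (16, -0.14) or oligodendrocyte precursors (14, 0.49) was called. Gfap, the astrocyte filament protein, had 235 and 259 CPM in cortex and 625, 445 and 474 in hippocampus, with no overlap and an adjusted p of 0.16 (log2 difference 0.95, SE 0.26). Aif1, which encodes the microglial protein Iba1, had 5.95 and 7.27 CPM against 11.5, 9.08 and 13.8 (adjusted p = 0.78). The general neuronal genes Slc17a7, a vesicular glutamate transporter, and Gad1, which makes GABA, overlapped between the regions, with adjusted p of 0.81 and 0.55.

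Signalling lists gave few calls. Of 25 monoamine and acetylcholine receptor genes tested, 16 lay below 0 with a median of -0.39, and Drd1 and Drd2 were lower. Glutamate receptor genes (24 tested, median -0.11) and Wnt and hedgehog genes (23, 0.064) gave no call. Steroid signalling (18, 0.025) gave Nr3c2 higher and Rorb lower. Neurogenesis (17, 0.043) gave Tubb2b higher and Stmn1 lower, both genes of the microtubule system. Of 31 immediate early genes, 21 lay below 0 with a median of -0.58, but the only call was Nr4a3, a nuclear receptor, in the other direction (log2 difference 1.46, SE 0.34, adjusted p = 0.099). Without cortex of mouse 2 the sign of that list turned, with 18 above 0, 13 below and a median of 0.23. The summed immediate early level was 2067 CPM in cortex of mouse 2 and 935 in that of mouse 17, on either side of the 1078 to 1213 of hippocampus.

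**Figure D4:**
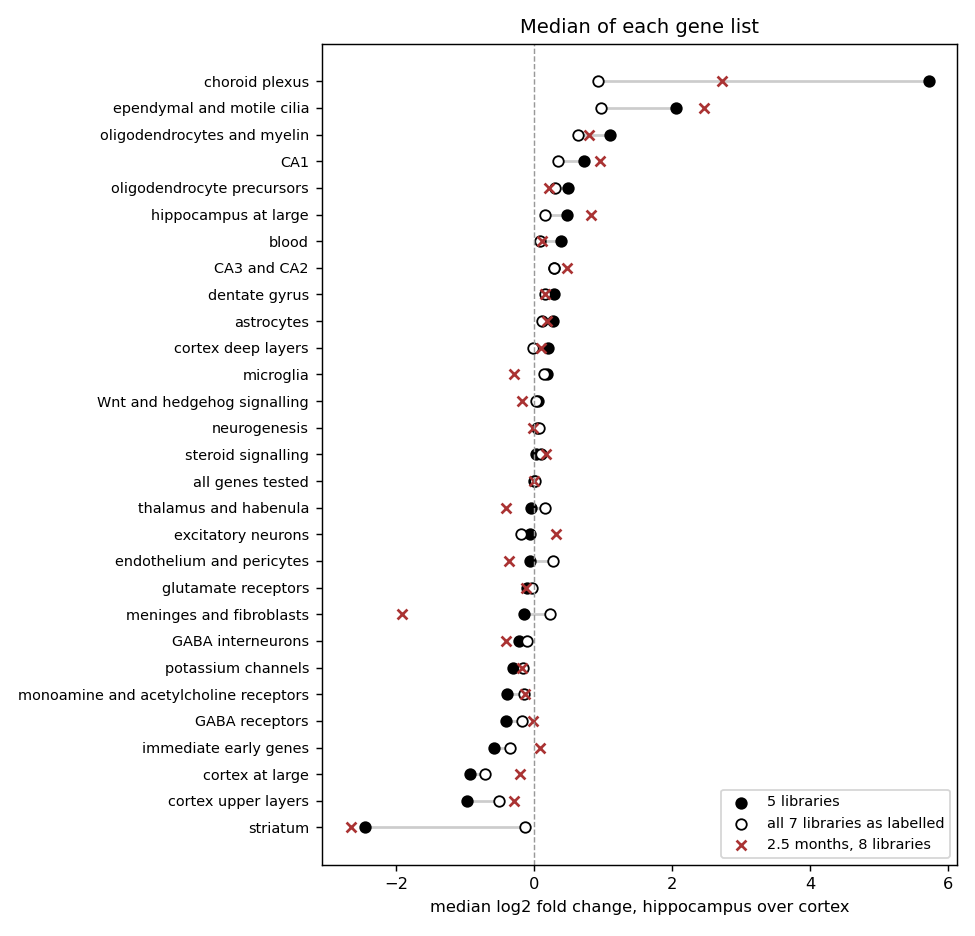
Median log2 fold change of each gene list, hippocampus over cortex, in the 5 libraries (filled points), in all 7 libraries as labelled (open points) and in the 8 libraries of 2.5 months (crosses). The grey bars join both values of 6 months. The median of the striatal list is -2.46 in 5 libraries and -0.13 in 7, and that of the choroid plexus list is 5.72 and 0.92.

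With all 7 libraries the same lists kept the sign of these medians in the main but not their size. The median was -0.13 for the striatum, 0.92 for the choroid plexus, 0.97 for motile cilia, 0.64 for myelin, 0.35 for CA1, -0.51 for the upper layers and -0.71 for the cortex at large. In the library labelled hippocampus of mouse 17, the sums of the upper layer and cortex-at-large lists lay above the other hippocampus libraries. Its deep layer sum, 1611 CPM, lay within their 1280 to 1721. The upper layer list summed to 1718 CPM there, against 1539, 1592 and 2039 in the libraries labelled cortex and 1104 to 1179 in the other hippocampus libraries. The genes of the cortex at large summed to 5175, against 5344, 5576 and 9867 in the libraries labelled cortex and 2955 to 4891 in the others.

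The libraries set aside, which did not enter the fit, can be read against its calls as a description. The counts that follow were not made over all genes tested, and the pair was chosen for its region genes. They are therefore no test of the calls. The library labelled cortex of mouse 4 lay above both other cortex libraries in all 61 genes called higher and below both in 87 of 92 called lower. Mef2c was among the genes called lower in which it did not lie below both. The library labelled hippocampus of mouse 17 lay below the other 3 hippocampus libraries in 57 of 61 and above them in 79 of 92. The 13 lower genes in which it did not rise included Rorb, Kcnv1, Stmn1 and 8 of the 18 with a Gm, Rik or pseudogene symbol. None of these 18 was called at 2.5 months, and reads of pseudogenes such as Rpl31-ps8 cannot be told from those of their parent genes, so their values are uncertain.

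The called genes were set beside their differences at 2.5 months, in other mice. The pair was set aside for its values of genes that differ between regions at 2.5 months, so a shared direction is a description and no independent support. Over all genes tested at both ages, 66.6% of those above 0 at 6 months and 64.9% of those below 0 had the same sign at 2.5 months. Of the 61 higher genes, 58 were tested at 2.5 months, all 58 in the same direction, and 37 were called, which is 60.7% of the genes of 6 months and 20.9% of the 177 of 2.5 months. Of the 92 lower genes, 89 were tested, 85 in the same direction, and 35 were called, 38% of those of 6 months and 21% of the 167 of 2.5 months. No gene was called in opposite directions. The median log2 difference of the 61 genes was 2.50 at 6 months and 1.56 at 2.5 months, and that of the 92 was -1.78 and -0.87. The genes were chosen for their 6-month values, so a larger value at 6 months is no finding.

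**Figure D5:**
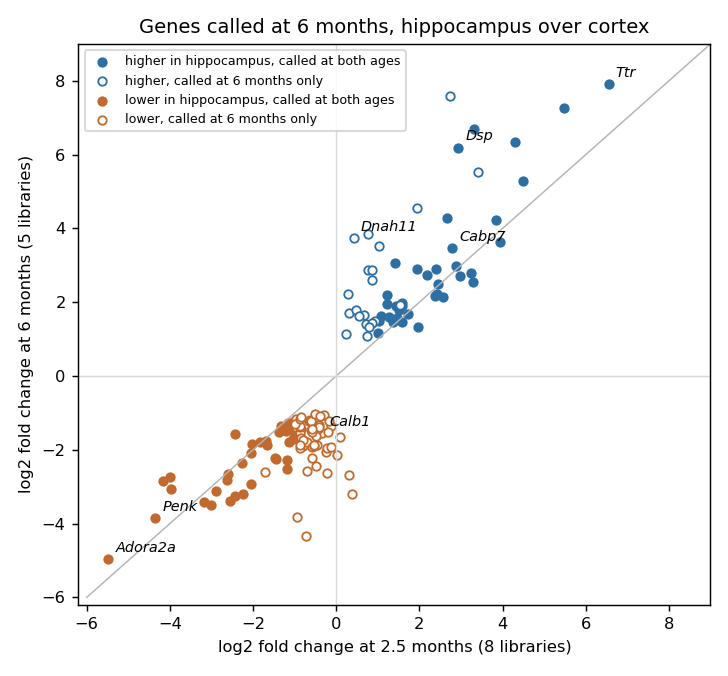
Log2 fold change of hippocampus over cortex at 2.5 months (8 libraries, x axis) and at 6 months (5 libraries, y axis) for the genes called at 6 months and tested at both ages. Blue is higher and orange lower in hippocampus, filled points were called at both ages, and the grey line marks equal values. Penk and Adora2a lie near the line, while Dsp and Dnah11 lie above it.

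The change of the region difference with age was tested in the 13 libraries of both ages as an interaction. The change is the log2 difference of hippocampus over cortex at 6 months minus that at 2.5 months, so a positive value is a shift toward hippocampus. Of 15840 genes, 0 (0%) shifted toward hippocampus and 0 (0%) toward cortex by the thresholds above. Of these, 676 had an unadjusted p under 0.05, the lowest adjusted p was 1.00, and DESeq2 called 2 genes. Dsp had the lowest p (0.000156): its means at 2.5 months were 30.7 CPM in hippocampus and 4.98 in cortex, against 96.5 ± 44.1 and 1.18 ± 0.200 CPM (SD, n = 3 and 2) at 6 months. Without cortex of mouse 2, the library on the SAMP8 side by its strain genes, some genes were called, all with a shift toward cortex. That fit left cortex of mouse 17 as the only cortex library of 6 months.

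Lists moved by unequal amounts in this comparison, with no member called. The meningeal list had a median change of 1.61, with all 18 genes above 0. Its 2.5-month median was -1.91, with 11 genes lower in hippocampus and 1 higher. At 6 months its median difference was -0.14 over 16 genes tested, and -0.59 over 13 without hippocampus of mouse 2. Fmod, an extracellular matrix proteoglycan of this kind of tissue, had 37.1 CPM in cortex and 5.82 in hippocampus at 2.5 months, against 9.22 and 8.48 at 6 months. The choroid plexus list had a median change of 1.70, with all 21 above 0. That value leaned on hippocampus of mouse 2: without it, the 6-month median difference was 2.82 over 12 genes tested, against 2.73 over 13 at 2.5 months. The genes of the cortex at large had a median change of -0.54, with 22 of 23 below 0. Over all genes the median change was -0.013.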

How the data were processed

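Total RNA was extracted with TRIzol from cortex and hippocampus, libraries were made with the CORALL kit after RiboCop depletion, and molecular identifiers served the authors to remove PCR duplicates. The deposited values are raw counts per gene by featureCounts after alignment with STAR, with versions not given in the sources used here. The methods name Gencode M29 with GRCm38. Of 55359 identifiers, 52083 (94.1%) matched GENCODE M21, from which names and coordinates on GRCm38 were taken. Promoters are from RefSeq (GRCm38.p6).

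Libraries were grouped by their titles, and the mouse number is that of the description. The fits used R 4.3.3, edgeR 4.0.16 (filterByExpr, TMM, quasi-likelihood F test), limma 3.58.1 and DESeq2 1.42.0. A called gene had a Benjamini-Hochberg adjusted p not above 0.1 and a log2 fold change of 1 or more in size. SE belongs to the fitted change, and SD is over libraries. The scripts were tested on simulated data. Libraries of a group were compared in pairs for copies, and none was found. Same-mouse libraries had correlations of deviations of 0.11, -0.11 and 0.038, and the highest was 0.22, between cortex of mouse 4 and hippocampus of mouse 2. The deviations are from the means of the labelled regions over all 7 libraries, the pair included. They therefore cannot decide the pairing by mouse. The mouse block is an alternative that takes each number as an animal.

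Named genes are, at most, the 10 largest called changes per direction with a mean of 5 CPM, the 5 of lowest p per list (28 lists), the 8 of lowest p per direction for the change with age, and 14 genes fixed by name. Some genes that this rule names are not reported here. The genes, lists and the pair of libraries left out were chosen with earlier results of these data known. Alternatives were DESeq2, RLE scaling, no filter or a mean of 20 counts, an adjusted p of 0.05 without fold, a model of all 12 groups, blocks, and each library left out. Halved counts were added after seeing the data.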

Additional observations from a re-analysis of the deposited data

Results flagged for a closer look

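For 71 genes and summary values, the highest or lowest of the 4 libraries labelled hippocampus was set against the other 3, and in 35 it lay apart by Dixon's critical value at 95%, which chance passes in about 1 of 20 groups. All 35 concerned 2 libraries. That of mouse 17 had been singled out for its region profile and most of the genes were called in a fit without it, so the number is a description and cannot be read against the chance rate.

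The library labelled hippocampus of mouse 17 was apart in genes of striatal neurons, at 102 CPM of Adora2a, 621 of Penk, 61.8 of Syndig1l, 49.4 of Drd2, 100.4 of Drd1, 213 of Rgs9, 524 of Pde10a and 95.8 of Tac1. It was apart in the opioid precursor Pdyn (43.3 CPM), in Foxp2 (71.1), Meis2 (229) and Arpp21 (547), in Serpina9 (33.99) and Cd4 (37.1), in the channel genes Kcnj4 (120.5 CPM) and Kcnt1 (125), in Gad1 (324) and, on the low side, in Gabra5 (15.4). Its summed level was 4043 CPM for the striatal list and 1718 for the upper layer list, its share of hippocampus by the genes of 2.5 months was 0.0369, and its region index from these genes was -1.65.

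Hippocampus of mouse 2 was apart in depth, at 9914452 counts, and in the choroid plexus, at a summed 27892 CPM. By gene it had 168 CPM of Slc4a5, 16899 of Ttr, 125 of Kcnj13, 568 of Tmem72, 583 of Kl, 363 of F5, 98.3 of Folr1, 72.6 of Otx2, 83.0 of Calml4, 7589 of Enpp2 and, outside that list, 49.9 of Fam84b. The cortex group of 3 libraries was not tested.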

How the results depend on the processing

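For all 7 libraries the count of 0 was also found with RLE scaling, a mean of at least 20 counts, an adjusted p of 0.05, all 12 groups in a single model, halved counts, mouse or title number as replicate block (0 and 0), and voom with mouse as random block. It was 4 with DESeq2, 154 without a filter on low counts (28442 genes), 153 without the pair of libraries set aside and 179 without these and cortex of mouse 2. Leaving out each library gave 0 to 2.

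For 5 libraries, the count of 153 became 341 with DESeq2 (150 shared), 139 with RLE scaling, 679 without a filter, 77 with a mean of at least 20 counts, 38 at an adjusted p of 0.05 without fold, 278 with all 12 groups and 331 with halved counts. Leaving out each library gave 11 to 179. With 1 cortex library left, it is assumed to vary like the others. Without cortex of mouse 2 the share of higher calls fell, to 21 higher and 158 lower. No mouse block could be fitted here, since mouse 2 alone has both regions.

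For the change with age, the count of 0 became 2 with DESeq2, 152 without a filter and 20 without cortex of mouse 2, and leaving out each library gave 0 to 20. It was 0 under the other alternatives. The check of libraries put 2 beyond the midpoint of the group medians by both gene sets, although by the hand-written lists the library labelled cortex of mouse 4 lay between the other libraries of both regions.

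Of 60 named genes followed over 12 distinct alternatives, direction turned in 2 cases: Tac1 with all 7 libraries (0.19 on the log2 scale) and Gad1, which was not called, without cortex of mouse 17 (0.091, with -0.99 to 0.091 over the libraries left out). Of the 60, 52 were called with the 5 libraries. Without hippocampus of mouse 2, 44 of these 52 lost their call, not counting genes no longer tested. Causes of these shifts were not tested. Hippocampus of mouse 4, at 434515 counts, limits what can be said of genes below a few CPM.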
